A study of Mus musculus with 10 samples.

Results

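The acyl-CoA dehydrogenases and the electron transfer flavoprotein that takes their electrons were followed through 10 genes: Acads, Acadm, Acadl, Acadvl, Acad9, Acad10 and Acad11 for the dehydrogenases, and Etfa, Etfb and Etfdh for the electron carrier and its oxidoreductase. They were chosen by name, as the protein-coding rows of the gene table that carry these symbols, and all 10 were found among the 56748 genes of the table. The cells were mouse colon organoids, three-dimensional cultures of gut epithelium. In the vehicle group, 5 libraries (replicates 1 to 5) came from organoids that received vehicle alone, and in the WY-14643 group 5 libraries (replicates 6 to 10) came from organoids given 100 µM WY-14643, an agonist of the nuclear receptor PPARα. Both treatments lasted 2 days and began 3 days after a passage. The labels name no mouse strain, genotype, organoid line, animal or culture day for any library, so the replicates may be technical and the p-values speak only of their spread; no group lacks PPARα.

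Acyl-CoA dehydrogenases carry out the opening step of each round of mitochondrial fatty acid β-oxidation, putting a double bond into an acyl-CoA and passing the electrons to their bound FAD. Each enzyme prefers a chain length: Acads short chains such as butyryl-CoA, Acadm medium chains, Acadl long and branched chains, and Acadvl very long and long chains at the inner membrane. The reduced enzymes hand their electrons to electron transfer flavoprotein, a dimer of the Etfa and Etfb products, and Etfdh moves them on to ubiquinone in the respiratory chain. Colon epithelium is known for burning butyrate made by gut bacteria, and PPARα is known to switch on fatty acid oxidation genes in liver, with Acadm among its described targets there. Acad9 is better known as an assembly factor of respiratory complex I, and Acad10 and Acad11 are larger relatives that also carry a domain resembling a phosphotransferase.

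Expression was deposited as FPKM, fragments per kilobase of gene, scaled to library size. Levels of different genes can be compared on this scale, with a limit given below for genes that share exons with others. From 15618244 to 29271304 reads stood behind a library, and mitochondrial genes took 0.792% to 2.58% of them. The 7 epithelial markers summed to 4043 to 6867 FPKM in vehicle and to 3766 to 7294 FPKM in WY-14643 libraries. Markers of fibroblasts, immune cells and endothelium summed to at most 0.214, 0.0223 and 0.0304 FPKM, with Dcn, Cd3e and Adgre1 at 0 in all 10 libraries. The 6 colonocyte markers, of which Car4 was at 0 in every library, ranged widely, from 85.7 to 1029 FPKM in vehicle and from 121 to 1879 FPKM in WY-14643. All 4 tested colonocyte markers had the higher mean with WY-14643 and 0 of 4 passed the test in limma without pairs or with matched pairs. Of 5 tested goblet markers 4 had the lower mean. Of these markers 2, Muc2 and Clca1, were lower in 5 of 5 of the matched pairs described below, as was Lgr5 of 3 tested stem cell markers. Ascl2, another tested stem cell marker, went the other way, at 1.53 ± 0.747 and 2.01 ± 0.892 FPKM (SD). It was higher with WY-14643 in 4 of 5 pairs. Axin2 was at 20.0 ± 6.25 and 19.1 ± 5.58 FPKM. Over all genes tested, 6.09% were lower in 5 of 5 pairs. Of the tested goblet and stem cell markers 0 passed in either fit. The summed goblet markers ran from 33.1 to 73.1 FPKM in vehicle and from 18.3 to 72.5 FPKM with WY-14643, and the stem cell markers from 20.4 to 36.4 and from 20.2 to 34.1 FPKM. The part of colonocyte, goblet and stem cell shares in the results below was not tested. In bulk RNA, fewer cells of a type and less RNA per cell cannot be told apart.

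In the order of their levels, the long-chain dehydrogenase and the α subunit of the flavoprotein led in every library. Etfa averaged 66.4 ± 12.4 FPKM in vehicle and 85.7 ± 12.8 FPKM with WY-14643, and Acadl 61.3 ± 6.69 and 96.4 ± 10.9 FPKM (SD, n = 5 each). Etfa was above Acadl in 4 of 5 vehicle libraries and Acadl above Etfa in 4 of 5 WY-14643 libraries, with overlapping ranges in both groups. Acadm, Acads and Acadvl held ranks 3 to 5 in all 10 libraries, at group means between 19.7 and 27.6 FPKM, and their ranges overlapped one another. Their order by mean was Acadm, Acads, Acadvl in vehicle and Acadvl, Acads, Acadm with WY-14643. Etfdh was always rank 6. Acad9, Etfb and Acad11 shared ranks 7 to 9, and Acad10 was rank 10 in every library.

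**Figure D1:**
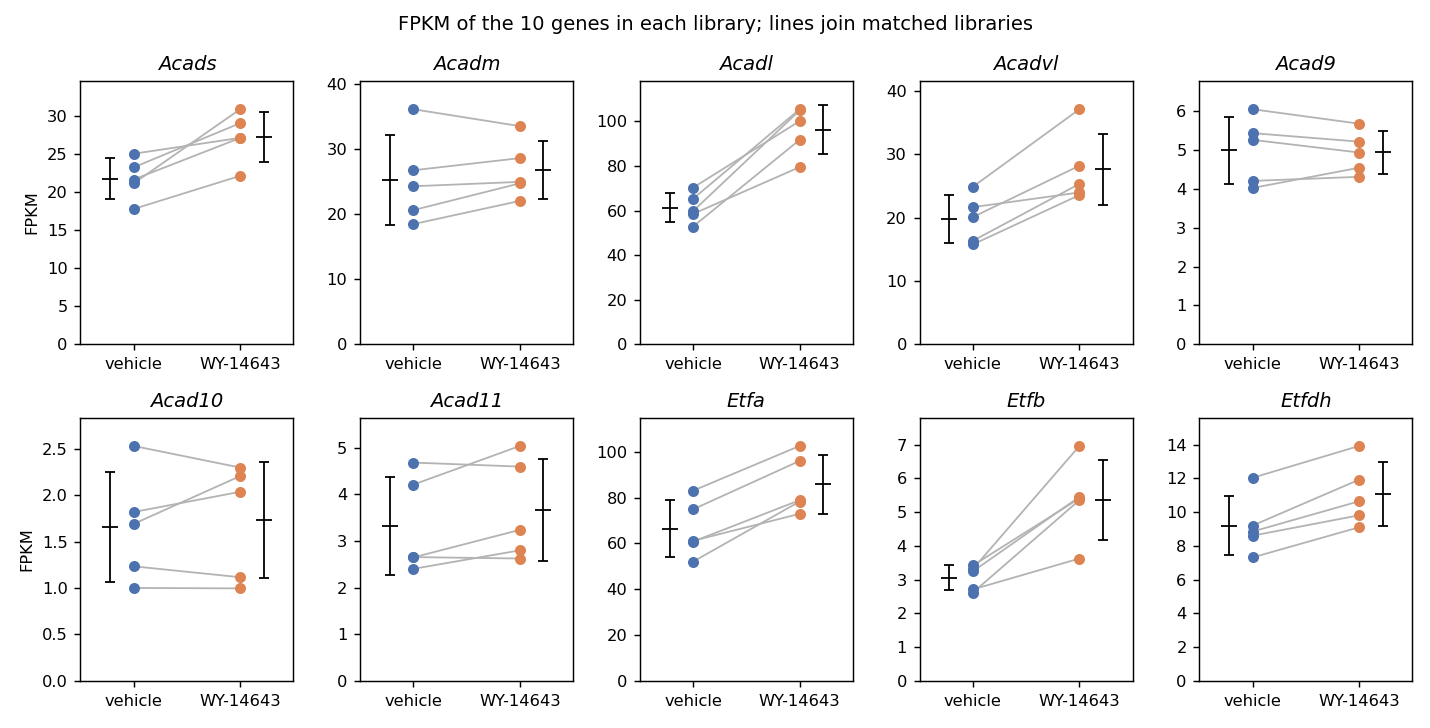
FPKM (y axis, from 0, one scale per gene) of the 10 genes in 5 vehicle and 5 WY-14643 libraries; points are libraries, bars are mean ± SD and grey lines join the matched libraries described in the text. Every WY-14643 point of Acadl and Etfb lies above every vehicle point. The points of Acads, Acadm, Acadvl, Acad9, Acad10, Acad11, Etfa and Etfdh overlap between the groups.

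Acadl, the long-chain enzyme, rose with WY-14643 in the test with matched libraries described below. It was the only one of the 10 genes to pass in limma on log2(FPKM + 1) of the deposited values with all 10 libraries. The means of Acads, Acadvl, Etfa, Etfb and Etfdh were 1.20 to 1.75 times those of vehicle and did not pass there, and those of Acadm, Acad9, Acad10 and Acad11 differed by at most 1.10-fold and did not pass either. Of the 10 genes, 9 had the higher mean with WY-14643 and the median log2 fold change on the log2(FPKM + 1) scale was 0.28, against -0.01 over all 13607 genes tested, of which 47.1% had the higher mean. Without pairs, limma with Benjamini-Hochberg adjustment called 0 of the 10 genes, and it called 0% of all genes tested; 5 of the 10 and 205 of all genes had an unadjusted p under 0.05, and voom on the recovered reads called 0 genes higher. All 5 WY-14643 libraries stood above all 5 vehicle libraries for 2 of the 10, Acadl and Etfb, and for 0.243% of all genes, while the reverse held for 0 of the 10 and 0.110% of all genes.

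The libraries also formed pairs that the labels do not name. In their deviations from the group means, vehicle replicate 1 went with WY-14643 replicate 6, 2 with 7, 3 with 8, 4 with 9 and 5 with 10, at correlations of 0.423 to 0.782 across genes, while unmatched libraries reached at most 0.0602. Deviations sum to 0 within a group, so high matched correlations push the unmatched ones down, and part of this gap is set by the centring. With these pairs as a block, 6 of the 10 genes (Acads, Acadl, Acadvl, Etfa, Etfb and Etfdh) were higher with WY-14643 in 5 of 5 pairs, against 5.63% of all genes; 6.09% of all genes and 0 of the 10 were lower in 5 of 5. Limma with the block called 1 of the 10, Acadl, and 0.287% of all genes as higher. The same block fitted by voom on the recovered reads called 6 of the 10, the same 6 genes that were higher in every pair, and 1.40% of all genes as higher.

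**Figure D2:**
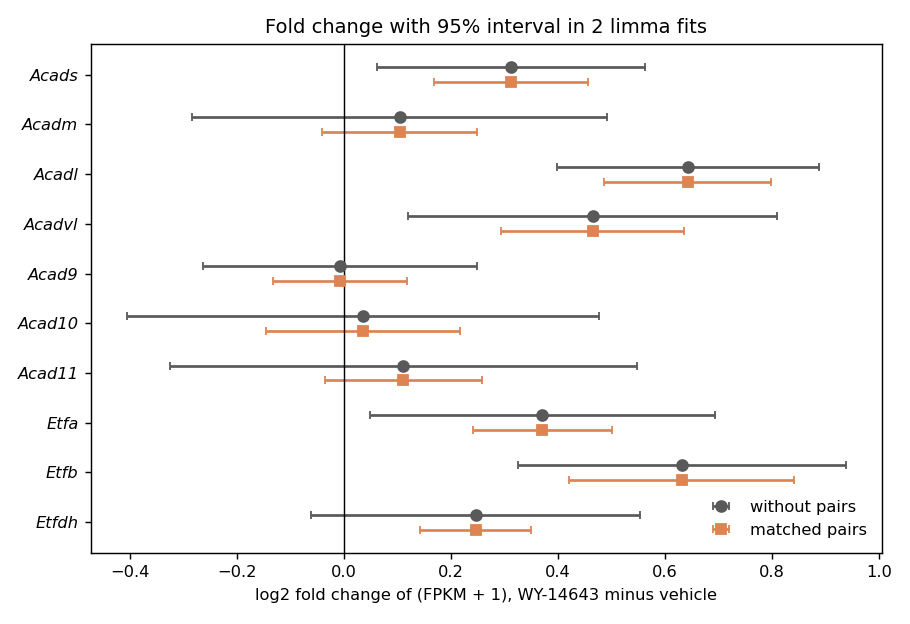
Log2 fold change of FPKM + 1, WY-14643 minus vehicle (x axis), of each gene with its 95% interval from limma without pairs (grey circles) and with matched pairs (orange squares), from 10 libraries. The estimates are the same in both fits. The intervals narrow with pairs, most for Acadm, Acad11 and Etfdh as a share of their width without pairs. With pairs the intervals of Acadm, Acad9, Acad10 and Acad11 still include 0.

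Among the 4 chain-length enzymes, Acadl, for long chains, had the largest difference. Acadl (ENSMUSG00000026003, chromosome 1 from 66869998 to 66902436 in build mm39, minus strand) stood at 52.8, 70.3, 65.3, 59.8 and 58.5 FPKM in vehicle replicates 1 to 5 and at 91.8, 100.2, 105.5, 105.0 and 79.5 FPKM in WY-14643 replicates 6 to 10. The lowest treated library, replicate 10, was above the highest vehicle library, replicate 2. The means differed 1.57-fold, with a log2 fold change of 0.64 ± 0.11 (SE; 95% interval 0.40 to 0.89) and a two-sided exact permutation p of 0.00794, the smallest that 5 against 5 libraries allow. In limma the adjusted p was 0.180 without pairs and 0.0221 with them. The matched call depended on which pair was left out: without pair 2, 3 or 4 the adjusted p in limma was 0.0912, 0.146 or 0.0781, at log2 fold changes of 0.68, 0.63 and 0.60, and without pair 1 or 5 it was 0.0470 or 0.0252, at 0.61 and 0.69. By pair, Acadl was 1.74, 1.42, 1.62, 1.76 and 1.36 times its vehicle level.

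Acadvl, the membrane-bound enzyme for very long chains (ENSMUSG00000018574, chromosome 11 from 69901009 to 69906237, mm39, minus strand), stood at 15.7, 24.8, 20.1, 16.3 and 21.6 FPKM in vehicle replicates 1 to 5 and at 23.5, 37.1, 28.2, 25.3 and 23.96 FPKM in WY-14643 replicates 6 to 10. The groups overlapped, because vehicle replicate 2 was above replicates 6 and 10, but each treated library was above its matched vehicle library. The means differed 1.40-fold, with a log2 fold change of 0.47 ± 0.16 (SE; 95% interval 0.12 to 0.81), an exact permutation p of 0.0238, and in limma an adjusted p of 1.0 without pairs and 0.0684 with them. Pair 5 had the smallest ratio, 1.11, against 1.40 to 1.55 in the other four, and without it the matched adjusted p in limma was 0.0235; without pair 1, 2, 3 or 4 it was 0.118, 0.188, 0.262 or 0.222. Of the 2686 exon bases of Acadvl, 42.9% also belong to Dvl2 on the opposite strand in GENCODE M21. Dvl2 was at 2.37 to 4.69 FPKM. Since the strand setting is not given in the sources used here, reads of the shared bases cannot be told apart. The level of Acadvl against other genes, with its rank and its share, is therefore uncertain.

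Acads, the enzyme that acts on butyryl-CoA (ENSMUSG00000029545, chromosome 5 from 115248358 to 115257405, mm39, minus strand), stood at 17.8, 23.2, 25.03, 21.1 and 21.6 FPKM in vehicle replicates 1 to 5 and at 22.1, 29.0, 27.1, 30.9 and 27.1 FPKM in WY-14643 replicates 6 to 10. Only replicate 6 fell within the vehicle range, and its matched vehicle library was the lowest of all. The means differed 1.25-fold, with a log2 fold change of 0.31 ± 0.11 (SE; 95% interval 0.06 to 0.56), an exact permutation p of 0.0238, and in limma an adjusted p of 1.0 without pairs and 0.114 with them.

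Acadm, for medium chains (ENSMUSG00000062908, chromosome 3 from 153627994 to 153650269, mm39, minus strand), stood at 18.5, 36.1, 26.7, 20.6 and 24.3 FPKM in vehicle replicates 1 to 5 and at 22.04, 33.5, 28.6, 24.7 and 24.96 FPKM in WY-14643 replicates 6 to 10. The treated range lay inside the vehicle range, and the highest library was vehicle replicate 2. The log2 fold change was 0.10 ± 0.18 (SE; 95% interval -0.28 to 0.49), the exact permutation p 0.595 and the adjusted p in limma 1.0 without pairs and 0.605 with them. The matched differences had an SD of 0.149 in log2, against 0.2995 between libraries of a group, and the interval with pairs was -0.04 to 0.25; that of Acadl with pairs was 0.49 to 0.80. Without 1 library the log2 fold change of Acadm without pairs ran from 0.00577 (vehicle replicate 1 left out) to 0.239 (vehicle replicate 2 left out). By pair, Acadm was 1.19, 0.93, 1.07, 1.20 and 1.03 times its vehicle level.

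Whether the enzymes differed in response was tested on ratios within each library, the difference in log2(FPKM + 1) between 2 genes, for 9 pairs of genes with p-values adjusted over the 9. The ratio of Acadl to Acadm was 1.47, 0.94, 1.26, 1.49 and 1.23 (log2) in vehicle replicates 1 to 5 and 2.01, 1.55, 1.85, 2.04 and 1.63 in WY-14643 replicates 6 to 10. It did not overlap between groups and was higher in 5 of 5 pairs, by 0.54 on average (log2; 95% interval 0.22 to 0.85; exact permutation p = 0.00794, adjusted p = 0.0357). The ratio of Acadvl to Acadm was -0.22, -0.52, -0.40, -0.32 and -0.16 in vehicle and 0.09, 0.14, -0.02, 0.03 and -0.06 with WY-14643, so Acadm stood above Acadvl in 5 of 5 vehicle libraries and below it in 3 of 5 treated ones. This ratio was also free of overlap and higher in 5 of 5 pairs, by 0.36 (log2; 95% interval 0.20 to 0.54; exact permutation p = 0.00794, adjusted p = 0.0357). Relative to Acadl and to Acadvl, the medium-chain enzyme was thus lower with WY-14643. When 1 library was left out, both adjusted values stayed below 0.05 only without WY-14643 replicate 8 or 10 and otherwise reached 0.0536 or 0.0714, with the differences at 0.45 to 0.60 and 0.31 to 0.40. Fewer libraries give fewer assignments, which limits how low these values can go. Without vehicle replicate 1, Acadvl to Acadm kept an exact permutation p of 0.00794, with an adjusted p of 0.0714. Exchanging signs within the 5 pairs cannot go below p = 0.0625, the exact value it gave for both ratios.

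The other 4 chain-length ratios did not pass. Acadl against Acads was higher by 0.33 (log2; 95% interval 0.12 to 0.55) in 5 of 5 pairs, with an exact permutation p of 0.0238 and an adjusted p of 0.0714, and it passed without WY-14643 replicate 10 (0.40, adjusted p = 0.0238 by the same exact test). Acads against Acadm differed by 0.21 (-0.11 to 0.54, exact adjusted p = 0.265) and Acadvl against Acads by 0.15 (-0.17 to 0.47, exact adjusted p = 0.330). Acadl against Acadvl differed by 0.18 (-0.12 to 0.47, exact adjusted p = 0.265), so that a difference between the long- and very-long-chain enzymes of up to 0.47 in log2 lies inside the interval. With 1 library left out, Acads against Acadm ran from 0.0982 (without vehicle replicate 2) to 0.266 (without WY-14643 replicate 7), Acadvl against Acads from 0.0690 (without WY-14643 replicate 7) to 0.224 (without replicate 9) and Acadl against Acadvl from 0.120 (without replicate 9) to 0.270 (without replicate 7).

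As shares of the summed FPKM of these 4 enzymes, Acadl took 48.1% ± 2.35 in vehicle and 54.2% ± 3.34 with WY-14643, and Acadm 19.5% ± 2.38 and 15.01% ± 1.46 (SD, n = 5 each). The share of Acadm was 17.5% to 23.4% in vehicle and 13.3% to 16.8% with WY-14643, without overlap. Acads took 17.1% ± 1.25 and 15.4% ± 1.57, and Acadvl 15.3% ± 1.29 and 15.4% ± 1.86, so the shares of Acadvl differed by less than their SD. The sum itself was 128 ± 18.9 FPKM in vehicle and 178 ± 19.5 FPKM with WY-14643, and the shares are not independent of one another.

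**Figure D3:**
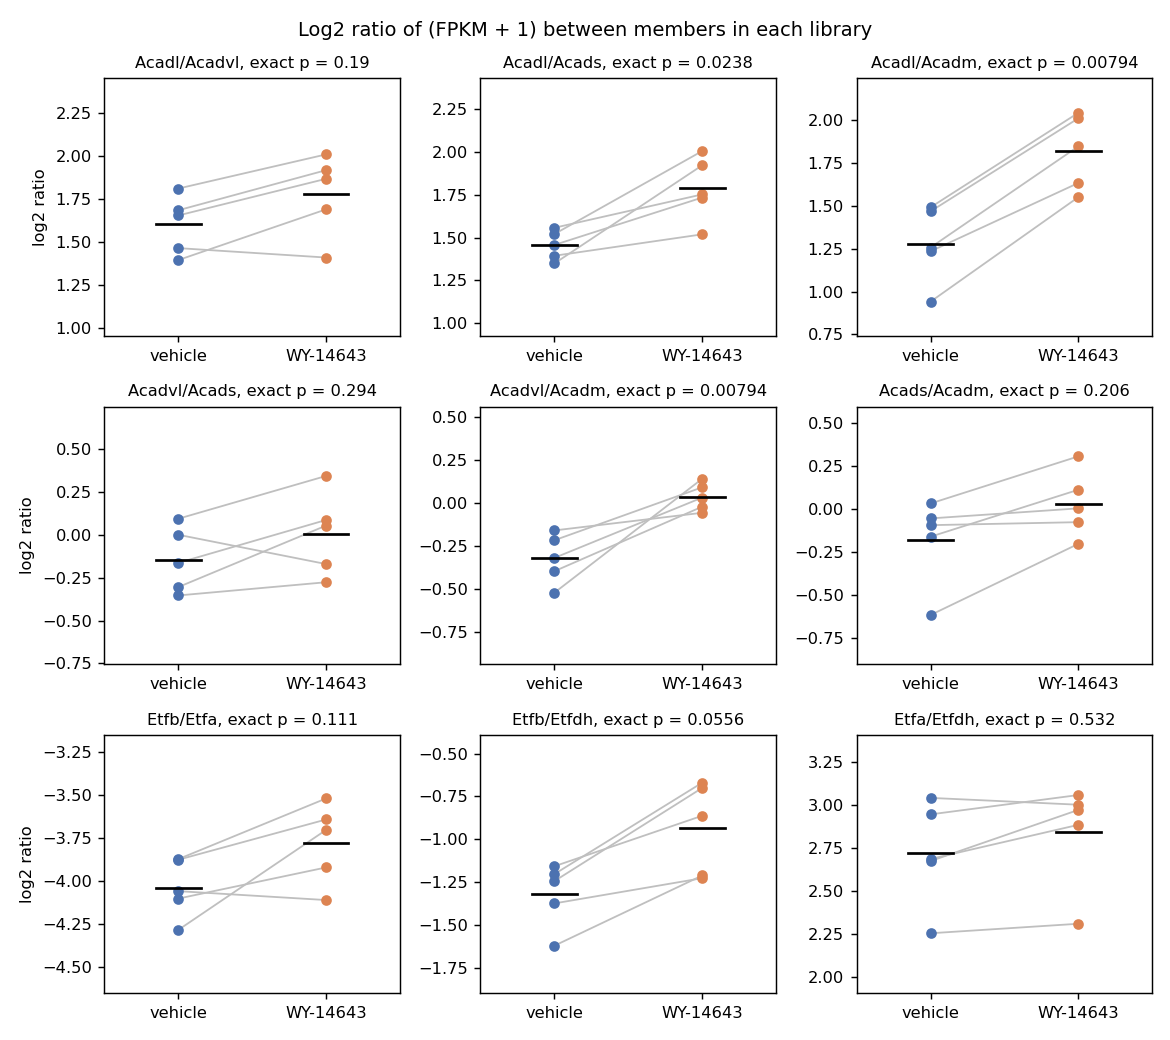
Log2 ratio of FPKM + 1 between 2 genes in each library (y axis, one range per panel) for the 6 chain-length and 3 flavoprotein comparisons; points are libraries, black bars group means, grey lines matched libraries, and titles give the unadjusted exact permutation p. Acadl/Acadm and Acadvl/Acadm are the panels with no overlap between the 5 vehicle and 5 WY-14643 libraries.

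PPARα is known to bind DNA together with RXR at a direct repeat of the core AGGTCA with 1 base between the copies. The 250 bases before the start of each gene were taken from RefSeq promoters (GRCm38.p6, a different build from that of the expression table), where 9 of the 10 genes were found, and were searched on both strands. The sequences of Acadl, which had the largest difference of the 4 chain-length enzymes, of Acadvl, of Acadm, which had the smallest, and of Etfa, the only one of the 9 with a repeat of at most 2 mismatches, are shown on the gene's strand with the matches in capitals. In Etfa the capitals mark the repeat, and in Acadm and Acadvl a single core without mismatch.
Acadl (chr1:66863310-66863559, minus strand): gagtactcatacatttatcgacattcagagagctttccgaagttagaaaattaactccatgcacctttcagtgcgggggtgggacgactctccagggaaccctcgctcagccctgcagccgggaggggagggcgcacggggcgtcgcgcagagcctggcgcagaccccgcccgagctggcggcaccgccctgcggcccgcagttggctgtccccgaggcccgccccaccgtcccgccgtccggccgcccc
Acadvl (chr11:70015429-70015678, minus strand): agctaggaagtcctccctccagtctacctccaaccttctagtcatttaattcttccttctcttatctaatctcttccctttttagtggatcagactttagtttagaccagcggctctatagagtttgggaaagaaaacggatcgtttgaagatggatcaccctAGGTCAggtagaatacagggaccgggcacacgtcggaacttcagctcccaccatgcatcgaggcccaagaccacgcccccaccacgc
Acadm (chr3:153944644-153944893, minus strand): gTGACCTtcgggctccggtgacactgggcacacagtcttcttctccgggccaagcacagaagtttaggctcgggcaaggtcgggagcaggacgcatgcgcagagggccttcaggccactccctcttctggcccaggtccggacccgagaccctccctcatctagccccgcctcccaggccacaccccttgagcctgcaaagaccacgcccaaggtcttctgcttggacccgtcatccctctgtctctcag
Etfa (chr9:55512244-55512493, minus strand): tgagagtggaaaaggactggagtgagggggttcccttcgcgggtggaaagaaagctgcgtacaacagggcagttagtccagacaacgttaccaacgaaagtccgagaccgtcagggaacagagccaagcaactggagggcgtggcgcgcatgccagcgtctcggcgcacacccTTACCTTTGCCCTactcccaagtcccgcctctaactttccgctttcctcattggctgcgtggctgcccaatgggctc
The Etfa match, TTACCTTTGCCCT, lies on the antisense strand, begins 77 bases before the start and has 2 mismatches; 3.24% of 32851 promoters hold such a match, and 0.0335% hold the repeat without mismatch. The core alone occurred in 2 of the 9, at the far end of the Acadm stretch on the antisense strand and 87 bases before that of Acadvl on the sense strand, and in 14.0% of all promoters. The Acadl stretch held neither and was rich in G and C, at 68.0% against a median of 52.4% over all promoters, with Acadm at 64.0%, Etfa at 58.8% and Acadvl at 49.6%. A match of letters does not show binding, and a stretch without one says nothing of sites elsewhere.

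The flavoprotein genes, which serve all of these enzymes, were higher with WY-14643 in 5 of 5 pairs each. None passed in limma on log2(FPKM + 1) of the deposited values, with or without pairs. With pairs, voom on the recovered reads called Etfa, Etfb and Etfdh (adjusted p = 0.00145, 0.0106 and 0.0161). Rescaled libraries with pairs gave Etfa an adjusted p of 0.0499 in limma. Both fits were added after seeing the data. Etfa (ENSMUSG00000032314, chromosome 9 from 55361792 to 55419527, mm39, minus strand) stood at 60.8, 83.0, 74.9, 52.1 and 61.1 FPKM in vehicle replicates 1 to 5 and at 78.9, 102.5, 96.0, 78.3 and 72.9 FPKM in WY-14643 replicates 6 to 10. The groups overlapped through vehicle replicates 2 and 3, and the pair ratios were 1.30, 1.24, 1.28, 1.504 and 1.19. The log2 fold change was 0.37 ± 0.15 (SE; 95% interval 0.05 to 0.69), the exact permutation p 0.0635 and the adjusted p in limma 1.0 without pairs and 0.0620 with them.

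Etfb, the β subunit (ENSMUSG00000004610, chromosome 7 from 43093507 to 43107224, mm39, plus strand), stood at 2.71, 3.31, 3.42, 2.62 and 3.25 FPKM in vehicle replicates 1 to 5 and at 3.63, 6.96, 5.41, 5.36 and 5.45 FPKM in WY-14643 replicates 6 to 10. Every treated library was above every vehicle library, the closest being replicate 6, and the pair ratios were 1.34, 2.10, 1.58, 2.05 and 1.68. The means differed 1.75-fold, with a log2 fold change of 0.63 ± 0.14 (SE; 95% interval 0.33 to 0.94), which the pseudocount lowers (0.77 with a pseudocount of 0.1), an exact permutation p of 0.00794 and an adjusted p in limma of 0.431 without pairs and 0.0540 with them. Without pair 1 the matched adjusted p in limma was 0.0470, and without pair 2, 3, 4 or 5 it was 0.142, 0.213, 0.179 or 0.130. Only 48 to 147 reads per library stood behind these values, the fewest of the 10 genes.

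The level of Etfb against other genes is uncertain. Etfa stood 21.6 times higher than Etfb in vehicle (18.8 to 25.1) and 16.4 times higher with WY-14643 (13.4 to 21.8), although the products pair one to one. In GENCODE M21 (GRCm38), 58.2% of the 1164 exon bases of Etfb are shared with other gene models, and 53.0% with a same-strand gene that the expression table calls Etfbl and lists with 0 reads in all 10 libraries. How reads in shared exons were assigned is not given in the sources used here, so their part in the low level was not tested. Acad9, Acad11 and Etfdh share 6.82%, 6.55% and 3.70% of their exon bases with other models, and Acads, Acadm, Acadl, Acad10 and Etfa none. The exon lengths of all 10 genes in M21 equal the lengths in the table.

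Etfdh, which passes the electrons to ubiquinone (ENSMUSG00000027809, chromosome 3 from 79511095 to 79536807, mm39, minus strand), stood at 8.61, 9.21, 8.85, 7.32 and 12.0 FPKM in vehicle replicates 1 to 5 and at 9.82, 11.9, 10.7, 9.11 and 13.9 FPKM in WY-14643 replicates 6 to 10. The groups overlapped widely, but the pair ratios were close to each other, at 1.14, 1.30, 1.20, 1.24 and 1.16. The log2 fold change was 0.25 ± 0.14 without pairs (SE; 95% interval -0.06 to 0.55) with an exact permutation p of 0.135; with pairs the interval was 0.14 to 0.35 and the adjusted p in limma 0.0930. The SD of the matched differences of Etfdh, 0.0681 in log2, was the smallest of the 10 genes, against 0.228 between libraries of a group.

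Ratios among the flavoprotein genes did not pass. Etfb against Etfdh was higher by 0.39 (log2; 95% interval -0.00 to 0.73) in 5 of 5 pairs, with an exact permutation p of 0.0556 and an adjusted p of 0.125, and with a pseudocount of 0.1 by 0.50 with an adjusted p of 0.0476 by the same exact test. Etfb against Etfa differed by 0.26 (-0.04 to 0.58, exact adjusted p = 0.200) and Etfa against Etfdh by 0.13 (-0.35 to 0.56, exact adjusted p = 0.532). With 1 library left out, Etfa against Etfdh ran from 0.00840 (without vehicle replicate 5) to 0.259 (without WY-14643 replicate 10), Etfb against Etfa from 0.195 to 0.343 and Etfb against Etfdh from 0.310 to 0.458. Etfa was 7.35 times Etfdh in vehicle (5.08 to 9.02) and 7.89 times with WY-14643 (5.24 to 9.01).

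The other 3 relatives were low, and their groups overlapped. Acad9, the complex I assembly factor (ENSMUSG00000027710, chromosome 3 from 36120128 to 36147002, mm39, plus strand), stood at 6.05, 4.21, 5.44, 4.03 and 5.27 FPKM in vehicle and 5.68, 4.31, 5.22, 4.55 and 4.94 FPKM with WY-14643. Its log2 fold change was -0.01 ± 0.12, with an interval of -0.13 to 0.12 with pairs, and its sign turned positive in voom without pairs and without vehicle replicate 1, 3 or 5 or WY-14643 replicate 7 or 9. Acad10 (ENSMUSG00000029456, chromosome 5 from 121759089 to 121798577, mm39, minus strand) stood at 1.001, 2.53, 1.23, 1.82 and 1.69 FPKM in vehicle and 0.997, 2.30, 1.117, 2.04 and 2.21 FPKM with WY-14643, a log2 fold change of 0.04 ± 0.20 (SE) whose sign turned without vehicle replicate 1 or 3 or WY-14643 replicate 7, 9 or 10. Acad11 (ENSMUSG00000090150, chromosome 9 from 103940576 to 104004924, mm39, plus strand) stood at 2.65, 4.21, 2.65, 2.40 and 4.68 FPKM in vehicle and 2.62, 5.04, 3.24, 2.80 and 4.59 FPKM with WY-14643. Its log2 fold change was 0.11 ± 0.20, with an interval of -0.04 to 0.26 with pairs, and it ran from 0.00975 without WY-14643 replicate 7 to 0.218 without vehicle replicate 5. The exact permutation p was 0.968 for Acad9, 0.841 for Acad10 and 0.571 for Acad11.

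In most of the 10 genes matched libraries deviated from their group means together. The correlation of the 5 vehicle with the 5 matched treated libraries is a description over 5 pairs: it was highest for Acadm (0.976), Etfdh (0.957), Acad9 (0.950) and Acad11 (0.937) and lowest for Acadl (0.483). Pair 2 was high for Acadm, at 0.54 and 0.33 above the group means (log2), and for Acadvl, at 0.34 and 0.43, and pair 1 was low for both. Etfdh was instead highest in pair 5, by 0.37 and 0.32 in log2, and Acad11 was high in both pairs, at 0.30 and 0.40 in pair 2 and 0.43 and 0.29 in pair 5. Over the 10 libraries, deviations of Acadm went with those of Acadvl (r = 0.922) and Etfa (r = 0.859), and those of Acad11 with Etfdh (r = 0.861). Acad9 ran opposite to Acad10 (r = -0.835). The 10 libraries form only 5 pairs, and 1 library's depth enters every gene's value, so the correlations are a description.

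**Figure D4:**
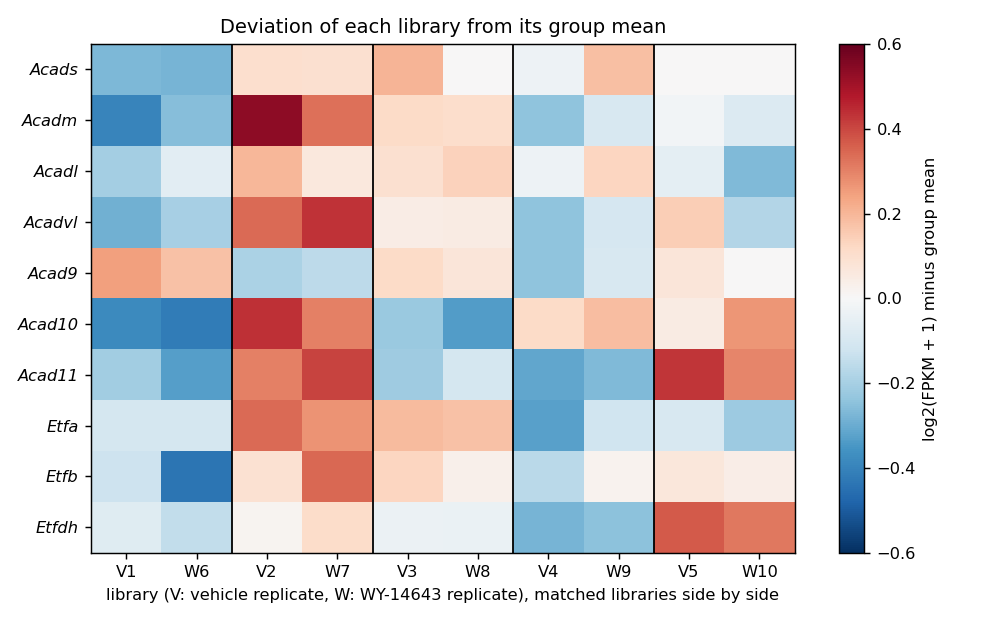
Deviation of each library from its group mean in log2(FPKM + 1) (colour, red above and blue below) for the 10 genes (rows), with matched vehicle (V) and WY-14643 (W) libraries side by side (columns). Matched libraries carry similar colours in most genes, pair 2 being high for Acadm and Acadvl and pair 5 for Etfdh and Acad11.

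Pearson's r of log2(FPKM + 1) over the 10 libraries was taken against 7336 other protein-coding genes with a mean of at least 5 FPKM. The genes most like a member by this r differed between members. For Acadl they included Cpt1a, the gate of long-chain import into mitochondria (r = 0.982), and the lipase Abhd6 (0.937). For Acadvl they were the carnitine carrier Slc25a20 (0.962), the thiolase Acaa2 (0.962) and 4931406C07Rik (0.952). For Acadm they were Tecr, an enzyme of very-long-chain fatty acid synthesis (0.983), the glycolytic enzyme Pgam1 (0.974) and the phospholipid synthesis enzyme Pcyt2 (0.973), none of which is a step of fatty acid oxidation. An r over all 10 libraries takes in the difference between the groups, large for Acadl and small for Acadm, as well as the spread within them. In deviations from the group means, Acadm went with Acadvl, as given above (r = 0.922). Acads was most like Ate1 (0.940), Pgls (0.906) and the peroxisomal and mitochondrial isomerase Ech1 (0.904), and Etfdh most like Plekhh1 (0.953), Slc35g1 (0.946) and Fermt1 (0.942).

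Upstream of the dehydrogenases, the carnitine shuttle brings long chains into mitochondria. All 4 of its tested genes, of 6 listed, were higher in 5 of 5 pairs, 0 of 4 passed in limma without pairs and 3 rose in limma with them: Cpt1a from 11.5 ± 2.39 to 26.6 ± 3.52 FPKM (adjusted p = 0.01004), Cpt2 from 14.0 ± 1.53 to 21.8 ± 3.76 FPKM (0.0368) and Slc25a20 from 9.12 ± 4.11 to 16.8 ± 6.12 FPKM (0.01004; SD, n = 5). The median log2 fold change of the shuttle was 0.71. Downstream, 6 of 9 genes of the later steps of mitochondrial β-oxidation were higher in 5 of 5 pairs, 0 of 9 passed without pairs and 2 rose in limma with them, Acaa2 from 51.9 ± 11.1 to 93.3 ± 18.7 FPKM (adjusted p = 0.0202) and the isomerase Eci2 from 3.56 ± 0.204 to 5.94 ± 0.569 FPKM (0.0128). Hadha, of the trifunctional protein that works on long chains, was at 20.5 ± 0.949 and 32.04 ± 4.998 FPKM without overlap (adjusted p = 0.0684 in limma with pairs). Hadh was higher in 5 of 5 pairs, with overlap between the groups and a log2 fold change of 0.273. Its adjusted p in limma with pairs was 0.169. Echs1, the short-chain hydratase, was at 14.3 ± 2.15 and 13.5 ± 1.38 FPKM. Echs1, Eci1 and Acat1 had the lower mean with WY-14643. Whether these later steps differed by chain length was not tested.

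Other dehydrogenases feed the same flavoprotein from amino acid and choline breakdown. Of 6 tested, 3 had the higher mean, 0 passed in limma with or without pairs, 0 were higher in 5 of 5 pairs and the median log2 fold change was -0.00. Ivd, of leucine breakdown, was at 11.8 ± 3.02 and 11.7 ± 3.39 FPKM, Gcdh, of lysine breakdown, at 8.92 ± 1.86 and 8.34 ± 1.08 FPKM, and Acadsb, of isoleucine breakdown, at 7.71 ± 0.981 and 7.30 ± 0.904 FPKM. Of 10 ubiquinone synthesis genes, 4 had the higher mean, 0 passed in either fit and the median was -0.01. Among 7 genes of riboflavin uptake, FAD synthesis and flavoprotein maintenance, 0 passed in either fit, and Rfk, which makes the FAD precursor FMN, was higher in 5 of 5 pairs at 121 ± 33.8 and 151 ± 39.7 FPKM (adjusted p = 0.0587 in limma with pairs). Of 5 complex I assembly partners of ACAD9, 4 had the higher mean, 0 passed in either fit and the median was 0.10. Of 3 tested peroxisomal acyl-CoA oxidases, which do the same chemistry without the flavoprotein, 0 passed in either fit.

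**Figure D5:**
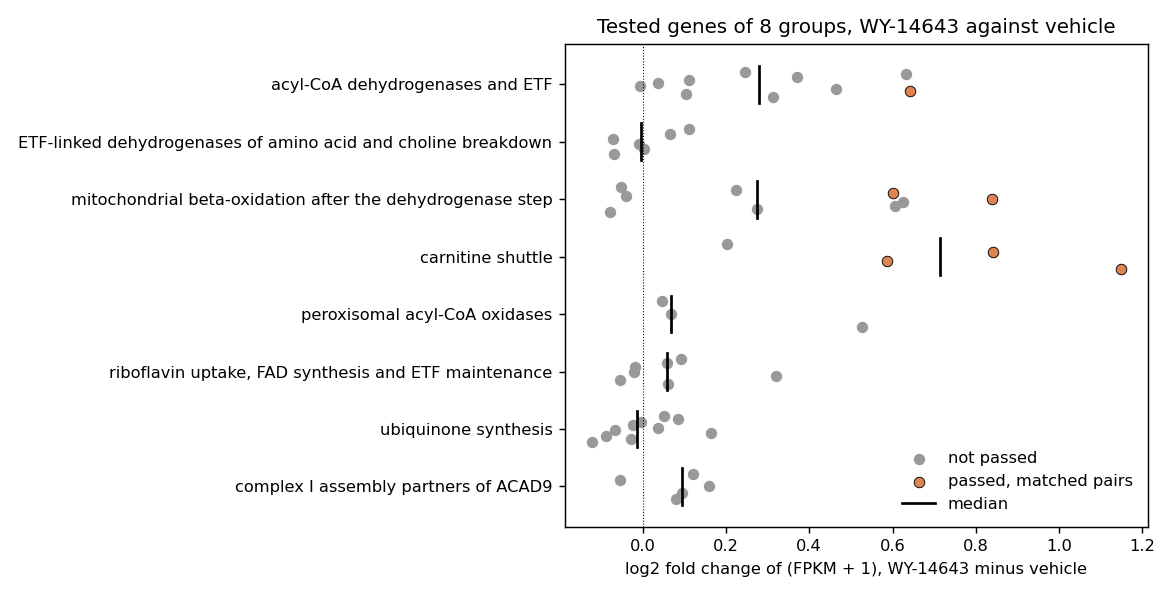
Log2 fold change of FPKM + 1, WY-14643 minus vehicle (x axis), of every tested gene in 8 groups (y axis); points are genes, black lines group medians, and orange points passed limma with matched pairs. Medians stand at 0.28 for the acyl-CoA dehydrogenases and flavoprotein genes, 0.71 for the carnitine shuttle and -0.00 for the dehydrogenases of amino acid and choline breakdown.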

How the data were processed

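Polyadenylated RNA of 10 colon organoid libraries was analysed from 1 deposited table of FPKM per gene, made by the authors. The submitters' processing notes name build mm39, HISAT2 2.0.5 and featureCounts 1.5.0-p3. Neither the strand setting nor the annotation release nor the treatment of shared exons is given in the sources used here. Groups follow the labels' treatment. FPKM times gene length, divided by the value of 1 read in that library (the smallest such product above 0), was whole for 100% of values (tolerance 0.01), and these reads served for depth and for voom.

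The treatments were compared on log2(FPKM + 1), computed from the deposited FPKM, with limma 3.58.1 (R 4.3.3) over the 13607 genes, 24% of the table, with a mean of at least 0.5 FPKM. The main fit had no pairs. Its eBayes was trended and robust, as in the limma fit with pairs, and voom fits used robust eBayes without the trend. P-values were adjusted over all genes tested by Benjamini-Hochberg, with 0.05 as the threshold. A log2 fold change on this scale understates the change of low genes. The pairing comes from the data, not from the labels; the fit with pairs is therefore an alternative. Single genes and ratios were tested by two-sided exact permutation over 252 assignments of the libraries, with intervals by inverting that test for ratios. The fits were tried on simulated counts, drawn with the same dispersion for every gene and without any pairing of libraries. That trial therefore does not show how the fits perform on paired libraries such as these. Python 3.11.15, scipy 1.17.1 and matplotlib 3.10.9 were used.

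Alternatives were pseudocount, filter, rescaling, voom, library weights, pairs and leaving out each library or pair; the paired fits with another pseudocount, voom or rescaling were added after seeing the data. The genes, lists and named-gene rule (for likeness, the closest 3 protein-coding genes for each of Acads, Acadm, Acadl, Acadvl and Etfdh; from each list, up to 3 genes with the smallest p and abundant members as examples) were chosen with earlier results of these data known. Some genes of the rule and lists are not reported here.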

Additional observations from a re-analysis of the deposited data

How the results depend on the processing

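Without pairs, the 10 genes gave 0 calls under another pseudocount, filter, rescaling, voom and with any library left out; over all genes, leaving out 1 library gave 0 to 2 genes higher. Library weights called 18 genes higher and 3 lower, with 1 of the 10 genes, Acadl (adjusted p = 0.0175 in limma), and gave vehicle replicate 3 and WY-14643 replicate 8 weights of 4.35 and 3.9 against 0.552 to 1.02 for the others. The replicate block called 39 genes higher and 4 lower, with 1 of the 10. Leaving out pair 1, 2, 3, 4 or 5 under the block gave 27, 3, 2, 12 and 30 genes higher, 6, 1 and 3 lower without pairs 1, 4 and 5, and 2, 0, 0, 0 and 2 of the 10 genes. Under the block a pseudocount of 0.1 called 37 higher, 3 lower and 1 of the 10, rescaling 46, 5 and 2 (Acadl and Etfa), and voom 190, 49 and 6; the cause of the larger voom counts was not tested. 

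Acad9 reversed in voom without pairs (0.00498 in log2) and under the block without pair 1 (0.0110), 3 (0.00396) or 5 (0.0107), and ranged from -0.0676 to 0.0547 with a library left out. Acad10 reversed under the block without pair 5 (-0.0181) and ranged from -0.0589 to 0.146 with a library left out. The other 8 genes kept their direction under every alternative run. Leaving out 1 library moved Acadl/Acadm between 0.45 and 0.60, Acadvl/Acadm between 0.31 and 0.40 and Acadl/Acads between 0.28 and 0.40. Under the block, where signs were exchanged within pairs, Acadl/Acadm (0.54) and Acadvl/Acadm (0.36) had an exact adjusted p of 0.1125, since 5 pairs cannot pass. With a pseudocount of 0.1 Etfb/Etfdh passed (0.50). Few reads limit Etfb, at 48 to 147 per library, and Acad10, at 96 to 446.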
